A study of Mus musculus with 16 samples.

Results

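The autophagy and lysosome genes examined here are 43 genes of 19938 measured on expression arrays of mouse regulatory T cells (Treg), the CD4 T cells that restrain other immune cells. They were taken as a named list. All 43 had a probe set annotated to their symbol alone, and the brightest such probe set stood for the gene. By role the list holds 4 genes of the initiation kinase complex, 4 of nucleation and its phosphoinositide effectors, 6 of the conjugation machinery, 5 ATG8 proteins, 2 cargo receptors and 2 lysosomal transcription factors. The lysosomal side adds 4 membrane proteins, 7 cathepsins and related proteases, 3 other luminal proteins, 5 proton pump subunits and the endosomal kinase Sgk3.

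The Treg came from lymph nodes pooled from several sites of wild type female C57BL/6 mice aged 8 to 12 weeks. Sorting on surface CD103, an integrin chain, and ICOS, a costimulatory receptor, gave 4 subsets: cells with neither (double-negative), with CD103 alone (CD103-only), with ICOS alone (ICOS-only) and with both (double-positive). RNA was taken straight after the sort (fresh) or after 3 days in a suppression assay (activated), with 2 arrays in each of the 8 groups and 270 ng of RNA behind each array. The assay wells held 200000 Treg of a subset, 1000000 naive CD4 cells carrying Ly5.1, 2000000 irradiated Rag2-/- splenocytes and 0.5 ug/ml soluble anti-CD3. Treg were then recovered as CD4 and CD25 positive cells without Ly5.1. Activated cells had thus been through culture and a second sort, which the fresh cells had not, and the effects of activation, culture and the re-sort cannot be told apart.

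In autophagy a cell wraps part of its cytoplasm in a double membrane and delivers it to the lysosome. The ULK kinase complex starts the process, the Beclin 1 and ATG14 lipid kinase complex marks the membrane, and an ubiquitin-like conjugation system attaches ATG8 proteins to it. Lysosomal proteases and glycosidases, working in an acid lumen kept by the vacuolar proton pump, then digest the contents. The transcription factors TFEB and TFE3 drive many of these genes through a short E-box-like element, TCACGTGA, known as the CLEAR motif. In Treg, autophagy is known to support survival and lineage stability.

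Values are deposited log2 intensities, and every difference below is a difference of log2 levels. They are levels of RNA and do not measure autophagic flux or lysosomal activity. A gene was called when limma's Benjamini-Hochberg adjusted p over all 19938 genes was below 0.05. The sort markers followed the labels in fresh cells: Icos lay at 12.61 or above on the ICOS-positive arrays and at 11.47 or below on the others, and Itgae, which encodes CD103, at 11.77 or above on the CD103-positive arrays and at 9.19 or below on the others. One array stood apart, activated ICOS-only replicate 2. Its Foxp3 level, the defining Treg factor, was 8.53 against 12.64 on its partner, and the 8 naive CD4 T cell markers averaged 11.40 against 9.87. Over all genes the deviations of these 2 arrays from the gene means correlated at 0.113, and the lowest value of any other pair was 0.539. Over the 43 genes these values were 0.0162 and 0.602. Some results that rest on this array, mainly those of the ICOS comparisons, are given with and without it. The calls for activated against fresh cells are given with it, and the range over fits that leave out 1 array is given at the end. In bulk samples of this kind, fewer cells of a type and less RNA per cell cannot be told apart.

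The median deviation of the genes from their own means ran from -0.18 on an activated double-positive array to 0.20 on a fresh double-positive array. The fresh double-positive arrays were the highest, at 0.20 and 0.14, and the other 6 fresh arrays lay between -0.06 and 0.04. Among activated arrays the ICOS-only pair lay at 0.09 and, on the array standing apart, 0.04, and the other 6 were below 0. By subset, the activated minus fresh difference was positive for 10 of the 43 genes in double-positive cells (median -0.22, all genes 0.04) and for 26 in ICOS-only cells (median 0.03, all genes 0.004). With replicate 1 alone as the activated ICOS-only array, the median was 0.10 (all genes -0.006). Fresh double-positive minus double-negative cells gave 31 of 43 positive (median 0.23, all genes -0.06). These set medians are descriptions with no test.

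**Figure D1:**
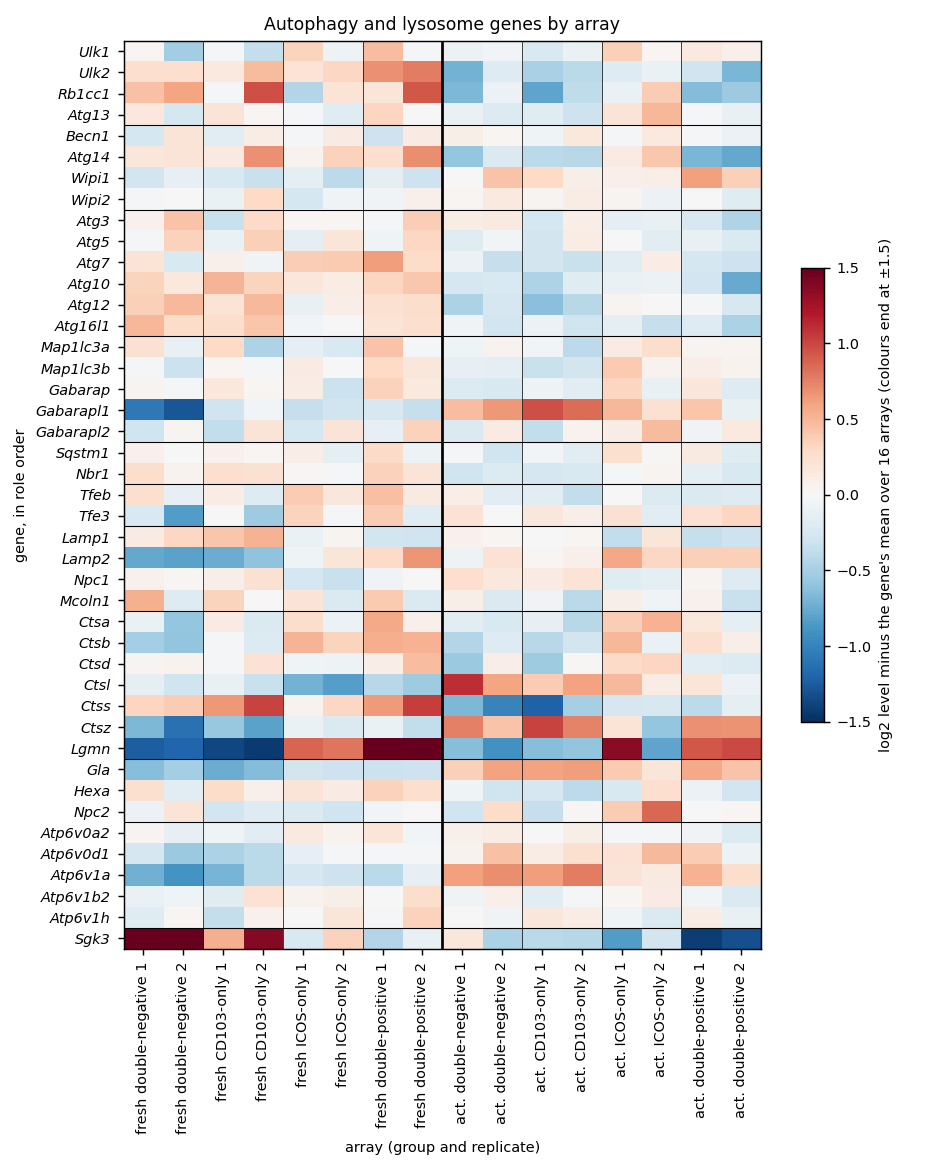
Log2 level of each of the 43 genes (rows, grouped by role) on each of the 16 arrays (columns), shown as the deviation from the gene's mean over all arrays. Rows such as Gla and Atp6v1a are higher on the activated arrays, rows such as Ulk2 and Ctss are lower there, and Lgmn is higher on the ICOS-positive arrays except activated ICOS-only replicate 2, which has a column of its own.

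The first comparison asked which genes differed between activated and fresh cells, averaged over the 4 subsets. Of the 43 genes 20 were called, 8 higher and 12 lower, and of all genes 31.2% were called (14.4% higher and 16.8% lower). The lysosomal hydrolase genes Ctsz, Ctsl and Gla, the pump genes Atp6v1a and Atp6v0d1 and the membrane gene Lamp2 rose, and so did the autophagy genes Gabarapl1 and Wipi1. Those that fell were Ulk2, Rb1cc1, Atg14, Atg10, Atg12, Atg16l1 and Atg7, which start and build the autophagosome, the receptor gene Nbr1, Tfeb, the lysosomal genes Ctss and Hexa, and Sgk3. The median difference was -0.07 for the 43 genes and -0.003 for all genes. Of the 43 genes 8 had activated and fresh arrays that did not overlap at all, against 7.12% of all genes.

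Among the initiation genes, Ulk2, a kinase that starts autophagy, read 8.75, 8.89 and 9.38 on the fresh arrays (lowest, median, highest of 8) and 7.90, 8.26 and 8.51 on the activated ones. The groups did not overlap, and the level fell by 0.77 (SE 0.09, limma adjusted p = 4.88e-05). Rb1cc1, the scaffold also known as FIP200, fell by 0.71 (SE 0.18, limma adjusted p = 0.0106), with overlapping arrays. Ulk1 and Atg13, the other members of the complex, were not called, at 0.04 and -0.06. In the nucleation group Atg14, which directs the lipid kinase complex to autophagy, fell by 0.63 (SE 0.10, limma adjusted p = 5.99e-04). Its activated arrays read 6.45 and 6.81 in double-negative, 6.62 and 6.61 in CD103-only and 6.34 and 6.26 in double-positive cells. Both ICOS-only arrays, at 7.15 and 7.43, lay above these and within the fresh range of 7.07 to 7.72. Wipi1, a phosphoinositide-binding effector, was higher without overlap, from a fresh median of 5.93 to 6.38, a rise of 0.49 (SE 0.08, limma adjusted p = 5.38e-04). Becn1 and Wipi2 were not called.

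The conjugation machinery went one way. All 6 differences were below 0, and 4 genes were called. Atg10, which acts as the E2-like enzyme for ATG12, had a fresh median of 8.79 and an activated median of 8.23, did not overlap, and fell by 0.59 (SE 0.07, limma adjusted p = 1.09e-04). Atg12, the ubiquitin-like protein itself, fell by 0.50 (SE 0.07), Atg16l1, which positions the conjugate on the membrane, by 0.47 (SE 0.07), and Atg7, the shared E1-like enzyme, by 0.42 (SE 0.08), with limma adjusted p-values of 1.53e-04, 2.71e-04 and 0.00238. Atg3 and Atg5 were at -0.21 and -0.22 and were not called.

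Of the 5 ATG8 genes 1 was called. Gabarapl1 read 7.94 and 7.74 on the fresh double-negative arrays and 8.67 to 8.98 on the other fresh arrays, and 8.90 to 9.98 on the activated arrays. It rose by 0.99 (SE 0.09, limma adjusted p = 6.97e-06, 1.98-fold), with 1 activated array within the fresh range. Map1lc3a, Map1lc3b, Gabarap and Gabarapl2 lay between -0.12 and 0.07. Of the cargo receptors Nbr1 fell by 0.34 (SE 0.05, limma adjusted p = 2.60e-04) and Sqstm1, which encodes p62, was at -0.08. Tfeb fell by 0.30 (SE 0.09, limma adjusted p = 0.0203), a call lost without fresh double-negative, double-positive or ICOS-only replicate 1 or activated double-negative replicate 2. Tfe3 was at 0.27 and was not called.

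**Figure D2:**
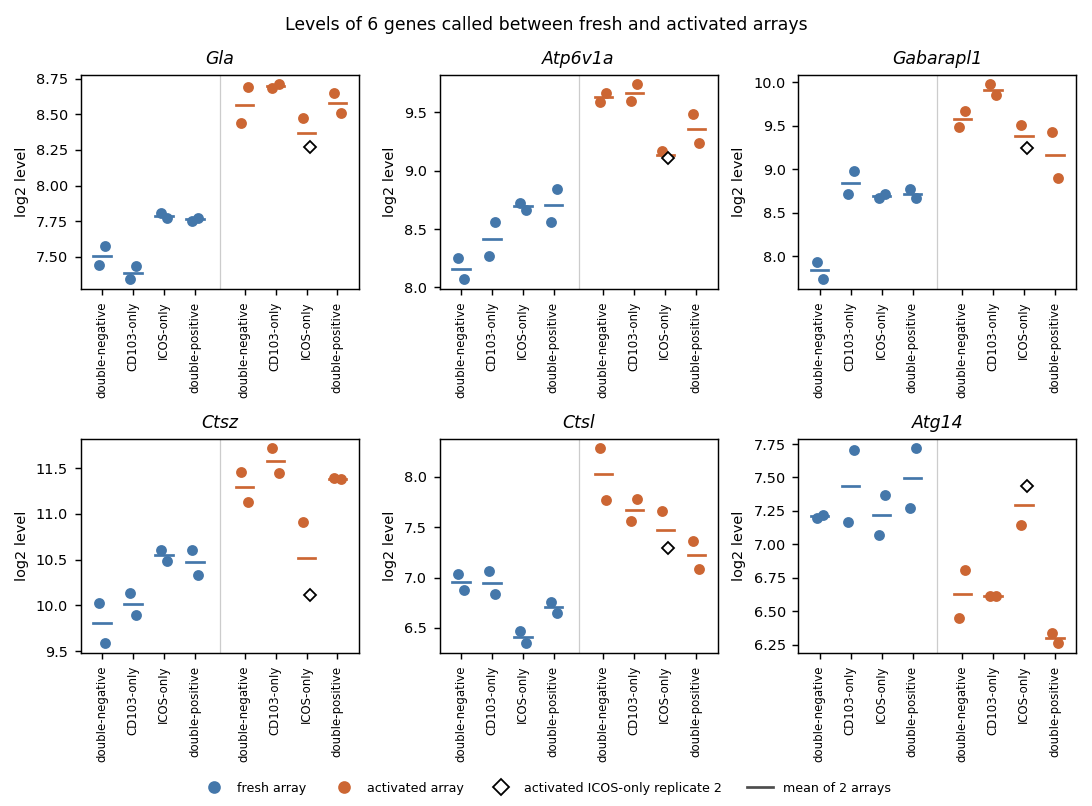
Log2 level of Gla, Atp6v1a, Gabarapl1, Ctsz, Ctsl and Atg14 on each array, by subset, fresh (blue) and activated (orange); bars are means of 2 arrays and the open diamond is activated ICOS-only replicate 2. Gla, Atp6v1a and Ctsl show no overlap between the states, and Atg14 of the activated ICOS-only cells stays within the fresh range.

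On the lysosomal side, Gla, the alpha-galactosidase that removes terminal galactose from glycolipids, gave 7.34, 7.67 and 7.81 on the fresh arrays (lowest, median, highest) and 8.27, 8.58 and 8.71 on the activated ones. The states did not overlap, and Gla rose by 0.94 (SE 0.06, limma adjusted p = 3.66e-07). Atp6v1a, the catalytic subunit of the pump, gave 8.07, 8.56 and 8.84 against 9.11, 9.54 and 9.74. It too was separate in every array and rose by 0.95 (SE 0.07, limma adjusted p = 1.78e-06). Atp6v0d1, a pump subunit of the membrane sector, rose by 0.46 (SE 0.09, limma adjusted p = 0.00163). The other 3 pump subunits lay between -0.07 and -0.01.

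The proteases moved both ways. Ctsl, the endopeptidase cathepsin L, rose by 0.84 (SE 0.09, limma adjusted p = 3.56e-05) without overlap, from a fresh median of 6.80 to 7.61. Ctsz, a carboxypeptidase, had a fresh median of 10.24 and an activated median of 11.38 and rose by 0.98 (SE 0.12, limma adjusted p = 8.17e-05). The activated ICOS-only arrays, at 10.91 and 10.12, were the 2 lowest activated arrays for Ctsz, and the one standing apart lay within the fresh range. Ctss, the cathepsin best known for trimming the invariant chain in antigen-presenting cells, gave 10.07, 10.52 and 11.05 fresh and 8.80, 9.57 and 9.88 activated, with no overlap. It fell by 1.10 (SE 0.12, limma adjusted p = 2.80e-05, 2.14-fold). Of the other luminal genes Hexa, a beta-hexosaminidase subunit, fell by 0.34 (SE 0.09, limma adjusted p = 0.0113), and Npc2 was at 0.23. Lamp2, a lysosomal membrane glycoprotein, rose by 0.46 (SE 0.08, limma adjusted p = 6.38e-04). Sgk3, a kinase recruited to endosomes by its phosphoinositide-binding domain, fell by 1.24 (SE 0.16, limma adjusted p = 1.11e-04, 2.37-fold).

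Markers of other cell types and states also differed in this comparison. Of the 23 measured myeloid and dendritic markers 8 fell, with the largest fall for Lyz2 at -2.26, and 1, Cd68, rose by 0.85. Of the 10 B cell markers 6 fell and 1, Ebf1, rose by 2.82, the largest change in that list. Levels of both lists were mostly low, with 20 of 23 and 8 of 10 below the median gene. Mean levels of the myeloid list spanned 5.74 to 6.48 on fresh and 5.64 to 5.88 on activated arrays. Their part in the fall of Ctss and other genes that myeloid cells also express was not tested. Of the 8 T cell markers 4 fell, and of the 8 naive CD4 markers 2 fell and 1, Satb1, rose by 1.43. Of the 9 CD8 and NK markers 3 fell and 1, Gzma, rose by 4.06. Of the 14 Treg markers 5 rose, with Tnfrsf9 at 1.54, and 3 fell, with Nrp1 at -2.53. The shares called were 39.1% (myeloid), 70% (B cell), 50% (T cell), 37.5% (naive), 44.4% (CD8 and NK) and 57.1% (Treg). The share of all genes was 31.2%. The part of the T cell, naive, CD8 and NK, and Treg lists was not tested either, nor was which cells the RNA of any marker came from.

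By subset, activated against fresh, 7 of the 43 genes moved by over 2-fold in double-negative cells, 7 in CD103-only, 1 in ICOS-only and 5 in double-positive cells. The shares of all genes were 8.26%, 10.3%, 2.70% and 6.51%. In the ICOS-only group replicate 1 alone also gave 1 gene. These counts by subset were not tested against each other, and each group had 2 arrays.

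The upstream windows of the 43 genes, called or not, were searched for the CLEAR motif, because Tfeb and Tfe3 are among the 43 genes. Windows of 300 bases, 250 before to 50 after the annotated start, were at hand for 32 of the 43 genes (38 windows, RefSeq, GRCm38.p6). The letters TCACGTGA, which read the same on both strands, were found in 7 of the 38 windows (18.4%) and in 0.974% of all 32851 windows. They belong to Atg3, Atp6v0d1, Atp6v1a, Ctsa, Ctsd, Gla and Mcoln1. Of these 7 genes 3 rose with activation, 0 fell and 4 were not called; of the other 25 genes with a window 5 rose and 8 fell. The 7-letter form TCACGTG, searched on both strands as TCACGTG and CACGTGA and contained in the longer motif, was in 28.9% of the 38 windows and 3.77% of all, adding Atg14, Atg7, Lamp1 and Lgmn. Both Atg14 and Atg7 fell. The motif is known as the one through which TFEB and TFE3 drive many of these genes. A higher share in this list was therefore likely beforehand, and the shares are no test. The split by direction was not tested. A match is a description of the letters and not a site shown to be bound. The stretches are shown for the pair with the smallest adjusted p among the genes that rose, and for Lgmn, whose subset pattern follows; each has 80 bases, reads 5′ to 3′ on the minus strand of GRCm38.p6, and has the match in capitals.
Gla chrX:134601173-134601252: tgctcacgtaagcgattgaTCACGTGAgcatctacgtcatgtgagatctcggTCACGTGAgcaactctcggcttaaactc
Atp6v1a chr16:44139348-44139427: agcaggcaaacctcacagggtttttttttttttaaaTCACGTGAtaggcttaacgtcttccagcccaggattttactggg
Lgmn chr12:102439099-102439178: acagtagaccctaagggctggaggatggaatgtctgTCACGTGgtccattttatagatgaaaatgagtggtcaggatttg
All 3 stretches lie upstream of the annotated start, from 247 to 168 bases before it for Gla, 168 to 89 for Atp6v1a and 86 to 7 for Lgmn. Gla has the motif in 2 places within its stretch. Lgmn has the 7-letter form only, in 1 of its 2 windows.

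The second comparison asked what distinguished ICOS-positive from ICOS-negative cells in the fresh state. Of the 43 genes 7 were called, 5 higher and 2 lower, against 6.53% of all genes (4.1% higher and 2.43% lower). The lysosomal proteases Lgmn and Ctsb and the membrane protein Lamp2 were higher in ICOS-positive cells, and Sgk3 and Lamp1 were lower. The genes of the autophagy core showed no call. Atg7 was at 0.42 (SE 0.12, limma adjusted p = 0.0623), with every ICOS-positive array above every ICOS-negative one. Atg16l1, at -0.26 (SE 0.10, limma adjusted p = 0.168), had them all below. The median difference over the 43 genes was 0.03 and that of all genes was -0.05.

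Lgmn, which encodes legumain, an asparaginyl endopeptidase of the lysosome, showed the largest difference of any of the 43 genes in any comparison. Its fresh levels were 7.17 and 7.22 in double-negative, 7.04 and 6.97 in CD103-only, 9.28 and 9.20 in ICOS-only and 10.17 and 10.45 in double-positive cells. All 4 ICOS-positive arrays lay above all 4 ICOS-negative arrays, and the double-positive pair lay above the ICOS-only pair. The ICOS difference was 2.68 (SE 0.33, limma adjusted p = 7.11e-04, 6.39-fold). It was 2.05 among CD103-negative and 3.30 among CD103-positive cells. The interaction of 1.25 was not called (SE 0.67, unadjusted p = 0.0883 by limma across all genes). Leaving out activated ICOS-only replicate 2 narrowed the Lgmn error that all groups share, and the interaction of 1.25 was then called (SE 0.17, limma adjusted p = 0.0319).

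Ctsb, the protease cathepsin B, read 10.46 and 10.37 in double-negative, 10.94 and 10.76 in CD103-only, 11.47 and 11.29 in ICOS-only and 11.51 and 11.48 in double-positive cells. Its ICOS-positive arrays were all higher, by 0.81 (SE 0.12, limma adjusted p = 0.00241). The other 5 proteases, Ctsa, Ctsd, Ctsl, Ctss and Ctsz, were not called. Ctsz lay at 0.60 and Ctsl at -0.40, with limma adjusted p-values of 0.0658 and 0.111. Leaving out activated ICOS-only replicate 2, which is not part of this fresh difference, left the Ctsz difference itself unchanged. That fit changes the error that all groups share, and Ctsz passed the test in it.

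The 2 main lysosomal membrane glycoproteins went opposite ways. Lamp2 read 8.91, 8.88, 8.93 and 9.07 on the ICOS-negative arrays and 9.61, 9.86, 9.95 and 10.33 on the ICOS-positive ones. It was separate between the groups and higher by 0.99 (SE 0.11, limma adjusted p = 2.44e-04). Lamp1 read 10.75, 10.94, 11.05 and 11.15 on the ICOS-negative arrays and 10.53, 10.68, 10.36 and 10.34 on the ICOS-positive ones. It was separate too, and lower, with a difference of -0.50 (SE 0.11, limma adjusted p = 0.0174). The Lamp1 call was lost without fresh replicate 1 of double-positive or ICOS-only cells, or fresh replicate 2 of double-negative, CD103-only or double-positive cells. Npc1, which exports cholesterol from lysosomes, was at -0.26 with a limma adjusted p of 0.0505, and the channel gene Mcoln1 was at -0.13.

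Atp6v1a and Gla were also higher in fresh ICOS-positive cells, by 0.41 (SE 0.10, limma adjusted p = 0.0293) and 0.33 (SE 0.08, limma adjusted p = 0.0307). Both calls depended on single arrays. The Gla call was lost when any 1 of the 8 fresh arrays was left out. That of Atp6v1a was lost without either fresh ICOS-only array, CD103-only replicate 1, or replicate 2 of double-negative or double-positive cells. Sgk3 read 8.58 and 9.04 in double-negative, 7.60 and 8.44 in CD103-only, 6.82 and 7.40 in ICOS-only and 6.61 and 6.94 in double-positive cells. Every ICOS-positive array was below every ICOS-negative one, and the difference was -1.47 (SE 0.22, limma adjusted p = 0.00265, 2.76-fold).

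**Figure D3:**
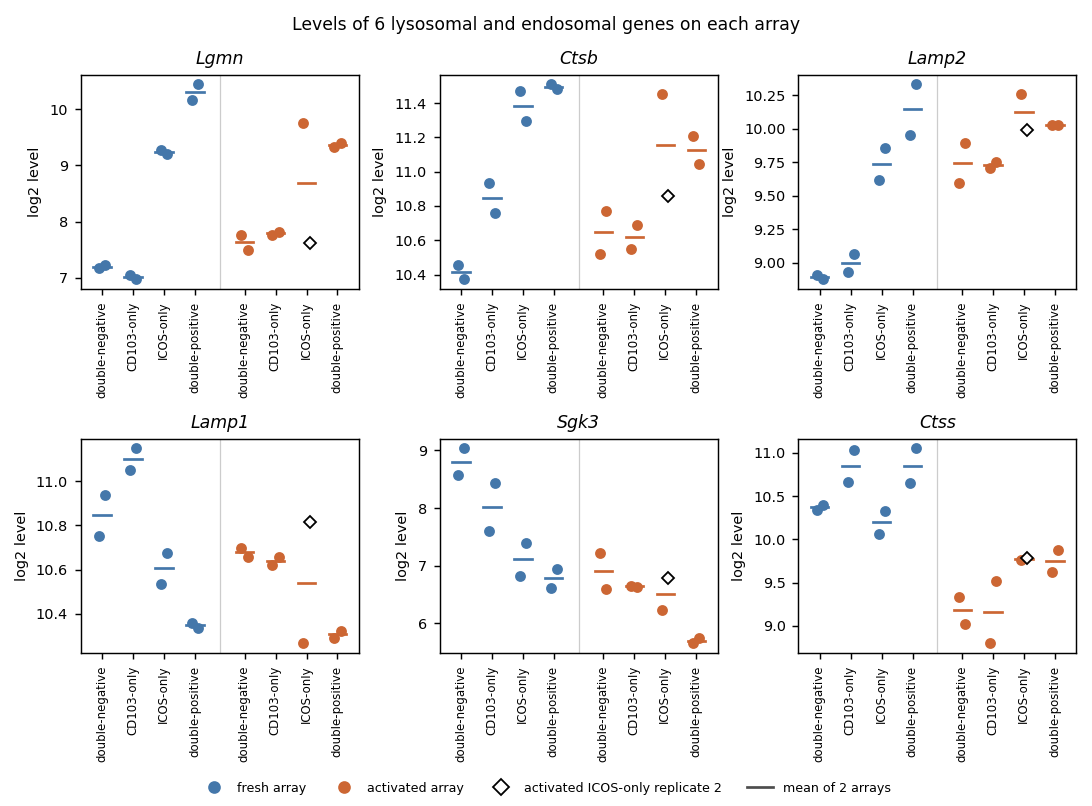
Log2 level of Lgmn, Ctsb, Lamp2, Lamp1, Sgk3 and Ctss on each array, by subset, fresh (blue) and activated (orange); bars are means of 2 arrays and the open diamond is activated ICOS-only replicate 2. Lgmn, Ctsb and Lamp2 are higher and Lamp1 and Sgk3 lower on all fresh ICOS-positive arrays, and the diamond of Lgmn, at 7.61, lies with the ICOS-negative arrays.

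Markers of other cells and states also differed between these groups. Of the 8 naive CD4 T cell markers 5 were lower in fresh ICOS-positive cells, with a list median of -1.15; Bach2, at -1.59, and Actn1, at -1.25, differed most. The naive list averaged 11.17 and 11.19 on the double-negative, 10.39 and 10.41 on the CD103-only, 10.35 and 10.46 on the ICOS-only and 9.01 and 9.14 on the double-positive arrays. Of the 9 CD8 and NK markers 3 were called, Gzmk and Klrb1c higher and Cd8a lower. One of the 23 myeloid markers was called, Lyz1, higher by 0.78, and 2 of the 10 B cell markers, Blk and Cd22, also higher. The myeloid list averaged 5.74 and 6.01 on the ICOS-only arrays, 6.09 and 6.29 on the double-positive, 5.78 and 6.09 on the double-negative, and 5.77 and 6.48 on the CD103-only arrays. The part of these markers in the differences of Lgmn, Ctsb, Lamp2, Lamp1 and Sgk3 was not tested.

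In the fit without a replicate block, CD103 gave no call among the 43 genes in either state. The fit with the block did give calls for CD103 in activated cells and for the change of the CD103 difference, as stated at the end. In fresh cells 0 of 43 were called with limma, against 0.206% of all genes; at an unadjusted p below 0.05 there were 7, against 7.49% of all genes. The difference was positive for 34 of the 43, with a median of 0.11, and the median of all genes was -0.002. Gabarapl1 was at 0.52 (SE 0.12, limma adjusted p = 0.167), Ctss at 0.56 (SE 0.16) and Sgk3 at -0.56 (SE 0.22). Without activated ICOS-only replicate 2, 1 gene was called with 0.792% of all genes, Lgmn at 0.44 (limma adjusted p = 0.0496). That array is not part of the fresh CD103 difference, and leaving it out changes the error that all groups share. The interaction of ICOS and CD103 in fresh cells had 0 calls among the 43 with limma, against 0.0451% of all genes, and 2 at an unadjusted p below 0.05, against 4.96% of all genes. For Gabarapl1, with its low fresh double-negative arrays, that interaction was -0.98 (SE 0.24, limma adjusted p = 0.32). In activated cells 0 of 43 were called for CD103 with limma, against 0.717% of all genes, and 7 had an unadjusted p below 0.05, against 12.1% of all genes. There only 9 of 43 differences were positive, with a median of -0.13 against 0.03 for all genes. The change in the CD103 difference between the states was also called in 0 of 43 with limma, against 0.296% of all genes, with 10 at an unadjusted p below 0.05, against 10.6% of all genes. Markers also differed with CD103. In fresh cells Lyz1, at 1.14, Blk, at 1.31, and Cd8a were called higher and Satb1, at -1.08, lower. There 18 of 23 myeloid and 9 of 10 B cell markers were positive, and 7 of 8 naive markers were negative. In activated cells Cd3g, at -0.68, and Bach2, at -2.40, were called lower, and all 8 T cell markers were negative. The part of these markers in the CD103 differences was not tested.

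**Figure D4:**
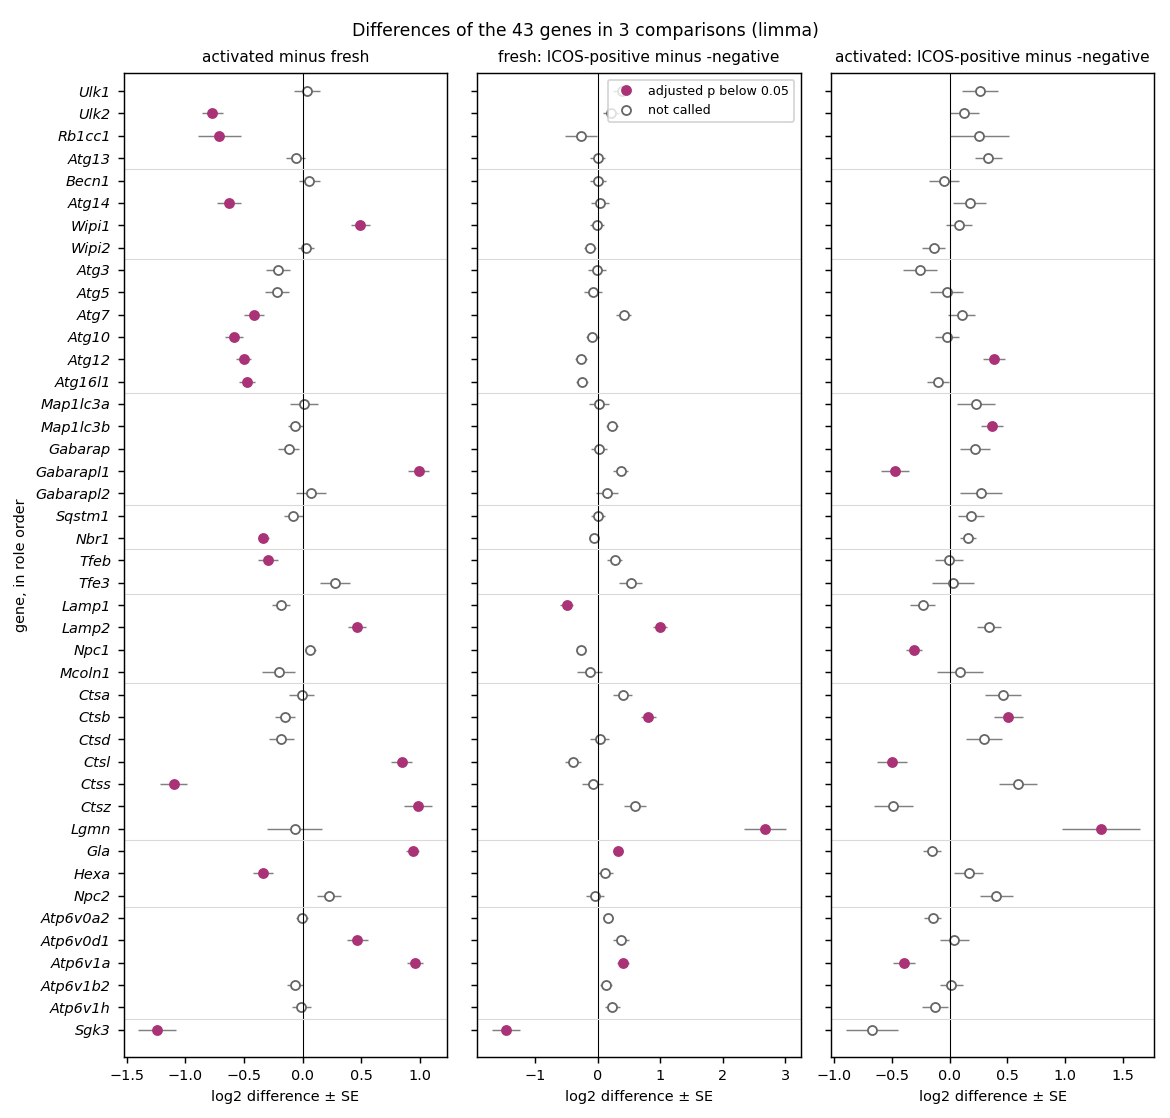
Log2 difference with its standard error for each of the 43 genes in 3 comparisons: activated against fresh, ICOS in fresh cells and ICOS in activated cells; filled points were called. The widest bars for ICOS belong to Lgmn, at 2.68 in fresh and 1.31 in activated cells.

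The ICOS difference in activated cells, whose ICOS label is that of the sort before culture, was less firmly measured. With all arrays 8 of the 43 genes were called, 4 higher and 4 lower, against 6.94% of all genes (1.94% higher and 5% lower). None of the 8 passed in a fit of only the 8 activated arrays, and none of the 43 passed without activated double-negative replicate 1, CD103-only replicate 1 or double-positive replicate 2. The 8 were Lgmn at 1.31 (SE 0.33), Ctsb at 0.51 (SE 0.12), Atg12 at 0.39 (SE 0.10), Map1lc3b at 0.37 (SE 0.09), Npc1 at -0.31 (SE 0.07), Atp6v1a at -0.40 (SE 0.10), Gabarapl1 at -0.47 (SE 0.12) and Ctsl at -0.50 (SE 0.13). Their limma adjusted p-values lay between 0.0278 and 0.0454. Applying quantile normalization again gave 6 higher and 3 lower. In the marker lists Cd3g was called higher, at 0.61, and Gpr83, at -1.92, and Ebf1, at -1.64, lower. The T cell list averaged 11.84 and 12.00 on the activated ICOS-only arrays and 11.39 and 11.40 on the double-positive ones. It averaged 11.44 and 11.57 on the double-negative and 11.09 and 11.27 on the CD103-only arrays. The part of these markers was not tested.

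Lgmn on the activated arrays read 7.77 and 7.50 in double-negative, 7.77 and 7.81 in CD103-only and 9.33 and 9.40 in double-positive cells. The ICOS-only arrays gave 9.76 and, on the array standing apart, 7.61. Without that array the ICOS difference of Lgmn was 1.85 (SE 0.10, limma adjusted p = 7.50e-06), and without its partner it was 0.78 (limma adjusted p = 0.00273). The Lgmn call was lost in the other 14 of the 16 fits that left out 1 array. Without the array standing apart 4 genes were called, against 6.65% of all genes: Lgmn, Ctsb at 0.66, Map1lc3b at 0.45 and Lamp1 at -0.37. The 2 probe sets of Map1lc3b gave 0.37 and 0.40 with all arrays.

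The ICOS difference itself changed between the states for 6 of the 43 genes, 1 upward and 5 downward, against 6.72% of all genes (2.06% upward and 4.65% downward). Atp6v1a went from 0.41 in fresh to -0.40 in activated cells, a change of -0.81 (SE 0.14, limma adjusted p = 0.00584). Gabarapl1 went from 0.36 to -0.47 (change -0.84, SE 0.17, limma adjusted p = 0.0147), and Ctsz from 0.60 to -0.49 (change -1.09, SE 0.24, limma adjusted p = 0.0219). Lamp2 went from 0.99 to 0.34 (change -0.65, SE 0.15, limma adjusted p = 0.0264) and Gla from 0.33 to -0.16 (change -0.48, SE 0.11, limma adjusted p = 0.0257). Atg12 moved the other way, from -0.26 to 0.39 (change 0.65, SE 0.13, limma adjusted p = 0.0158). Atp6v1a, Gabarapl1 and Atg12 were called in all 16 fits that left out 1 array. Gla was called in 6, Lamp2 in 7 and Ctsz in 11 of them. For Lgmn the change of -1.36 was not called (SE 0.47, limma adjusted p = 0.124), and without the array standing apart it was -0.83 and called (SE 0.13, limma adjusted p = 0.00457). In that fit Gla and Lamp2 were not called, and 5 of the 43 genes were, against 5.92% of all genes.

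Neighbouring genes of the pathway were read from 4 further lists. With activation 5 of 38 other autophagy genes rose and 9 fell, 36.8% called against the 31.2% of all genes. Bnip3, a mitophagy receptor, rose by 3.86 and Tmem41b, a scramblase of the endoplasmic reticulum, by 1.05. The receptor gene Calcoco1 fell by 1.10 and Pik3c3, the lipid kinase itself, by 0.50. Bnip3 and Tmem41b, and Arsb below, have 2 probe sets each, and only the brighter one was read. Of 38 other lysosomal genes 6 rose, with the sulfatase gene Galns at 0.88 and the ceramidase gene Asah1 at 0.71, and 13 fell (50% called), with Ctsw by 1.03 and the lipase gene Lipa by 0.82. Of the 11 other pump genes 0 were called by limma, with 2 at an unadjusted p below 0.05. Of 27 genes of mTORC1 and nutrient sensing 3 rose and 7 fell (37.0% called), with Fnip2 at 0.76 and Rraga at 0.38, and Tsc1 at -0.60 and Rptor at -0.58. For ICOS in fresh cells 4 genes of these lists were called, 5.26% of the autophagy list, 5.26% of the lysosomal list and 0 by limma of the pump and mTORC1 lists (1 and 3 at an unadjusted p below 0.05), against 6.53% of all genes: Vmp1 at 0.48, Stx17 at -0.58, Glb1 at 0.66 and Igf2r at -0.59. In activated cells the ICOS difference was called higher for 4 other lysosomal genes, led by the protease gene Ctsh at 1.21 and Arsb at 1.04. It was lower for Gusb at -0.47. That made 13.2% of that list against 6.94% of all genes (1.94% higher and 5% lower). Of the other autophagy genes Vps41 was higher there at 0.28, and Rubcn, at -0.40, and Atg4c, at -0.36, were lower, 7.89% of that list. These calls come from the fit of all arrays. For these lists no fit of the activated arrays alone, or without the array standing apart, is given here.

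Of the 43 genes 25 were called in at least 1 comparison and 18 in none. The matching share of all genes is not given here, and activated against fresh alone called 31.2% of all genes. The 18 are Ulk1, Atg13, Becn1, Wipi2, Atg3, Atg5, Map1lc3a, Gabarap, Gabarapl2, Sqstm1, Tfe3, Mcoln1, Ctsa, Ctsd, Npc2, Atp6v0a2, Atp6v1b2 and Atp6v1h. Over the comparisons of state, ICOS and CD103 the largest difference among them was 0.53, that of Tfe3 for ICOS in fresh cells. A missed call does not show that these genes were unchanged. Atp6v1a was called in 4 comparisons, and Atg12, Gabarapl1, Gla and Lamp2 in 3 each. These comparisons are not independent, because the change of the ICOS difference is the activated difference minus the fresh one. Gabarapl2 and Atp6v0a2 have 2 probe sets each, which differed in brightness and gave differences of unlike sign with activation (0.07 and -0.37, and -0.01 and 0.04), so their values depend on the probe set.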

How the data were processed

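The values are deposited log2 intensities, 1 for each of 35556 probe sets on each of 16 arrays; RMA and affy made them per the submitters' processing notes, with versions not given in the sources used here. The array medians lay between 6.26 and 6.48. Probe sets with 1 symbol (21789; 1621 had several and 12146 none) were kept, the brightest per gene, which left 19938 genes; 21698 of these probe sets matched RefSeq and 0 symbols differed.

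limma 3.58.1 in R 4.3.3 used 8 group means over the 16 arrays (8 residual degrees of freedom, prior 2.90), with no filter on dim genes and Benjamini-Hochberg adjustment per comparison, over 8 comparisons. A gene was called at an adjusted p below 0.05. The labels call the 2 arrays of a group biological replicates. The number of arrays limits the precision.

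The members, the lists and the motif were chosen with earlier results of these data known. Genes that passed are named with statistics, up to 4 per role and comparison by size, and up to 2 per direction from each pathway list. Values with names singled out beyond this rule were chosen after they were seen. Replicate numbers were checked for pairing through the deviations from the group means. Over the 28 pairs of groups same-numbered arrays correlated from -0.016 to 0.752, and 27 of 28 were over 0.1, so same-numbered arrays tended to deviate together. The labels tie no number to a shared experiment and 1 pair fell below 0.1, so the fit without the block was kept, with the block as an alternative. Protein sequences were not used here.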

Additional observations from a re-analysis of the deposited data

Results flagged for a closer look

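The ICOS difference changed between fresh and activated cells for 6 of the 43 genes, by the limma test of the change itself. The share of all genes called was 6.72%, with 2.06% upward and 4.65% downward. The changes were 0.65 for Atg12, -0.84 for Gabarapl1, -0.65 for Lamp2, -1.09 for Ctsz, -0.48 for Gla and -0.81 for Atp6v1a. The calls of Gla, Lamp2 and Ctsz were lost in some of the fits that left out 1 array. Each group of 2 arrays was too small for a test of single deviating arrays.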

How the results depend on the processing

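Treating the replicate number as a block gave 25 calls among the 43 genes for activated against fresh, 14 for ICOS in fresh cells, 15 for ICOS in activated cells, 2 for CD103 in activated cells and 1 for the change of the CD103 difference between the states. Same-numbered arrays tended to deviate together, but the labels tie no number to an experiment, so the block stays an alternative. An intensity trend with robust estimation left 2 calls for ICOS in activated cells. Fits of only the 8 arrays of a state gave 0 for ICOS in activated cells and 1 for the interaction of ICOS and CD103 in fresh cells. Leaving out 1 array at a time gave 19 to 23 calls for activated against fresh, 4 to 8 for ICOS in fresh cells, 0 to 1 for CD103 and 0 to 1 for the interaction in fresh cells. It gave 0 to 5 for ICOS and 0 to 2 for CD103 in activated cells, 3 to 8 for the change of the ICOS difference and 0 to 0 for that of CD103. ICOS in fresh cells had 4 calls without fresh ICOS-only replicate 1, double-negative replicate 2 or double-positive replicate 2. The change of the ICOS difference had 3 without activated double-positive replicate 2. CD103 in fresh cells and the interaction had 1 each without either activated ICOS-only array, and CD103 in activated cells had 2 without replicate 1 of that group. For these counts the cause was not tested. The calls over all genes in these fits are not given here, so the counts do not show a change particular to the 43 genes. None of the called differences changed sign under the alternatives run. Quantile normalization applied again changed no value by more than 0.221. With 2 arrays per group, a difference that missed the threshold may still exist, and dim probe sets such as that of Wipi1 understate fold changes.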
